A study of Caenorhabditis elegans with 83 samples.

Results

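The proteasome subunit genes of Caenorhabditis elegans were examined for binding of 3 chromatin proteins, the PHD-finger protein SET-26, the adapter HCF-1 and the deacetylase HDA-1. Members were the protein-coding genes whose symbol begins with pas, pbs, rpn or rpt followed by a number, which gave 33 of 19985 genes. The 14 pas and pbs genes encode the core particle and the 19 rpn and rpt genes the regulatory particle. No measured value was used to choose them.

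The proteasome is the protease complex that degrades proteins marked with ubiquitin. Its core particle is a stack of rings, in which the alpha subunits (pas) gate the entrance and the beta subunits (pbs) form the chamber where peptide bonds are cut. The regulatory particle caps the core: ATPases (rpt) unfold the substrate, and non-ATPase subunits (rpn) receive ubiquitin chains, remove them and hold the lid and base together. Subunit genes are expressed in most cells, and in worms the transcription factor SKN-1 raises their expression when the proteasome is impaired. SET-26 recognizes histone H3K4me3, HCF-1 brings chromatin enzymes together, and HDA-1 takes acetyl groups off histones.

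Binding was measured by CUT&RUN, in which an antibody guides a nuclease to cut out the DNA beside a bound protein, in day 1 adults grown at 25 °C. SET-26 (rwIs27[set-26::ha]) and HDA-1 (syb5185[hda-1::gfp::ha]) were profiled with an HA antibody and HCF-1 (rwIs33[hcf-1::gfp::3xflag]) with a FLAG antibody, each tag sitting at the factor's own locus. The 83 samples formed 41 groups, 40 of 2 samples and 1 of 3. The authors merged samples within a group and called peaks on the merged reads, so that 22 peak lists carried the results. The group of 3 was the HA background of wild type, where the labels assign 1 sample to SET-26 and another to HDA-1. In 6 lists a factor was set against the same antibody in worms without the tag, in wild type or in glp-1(e2141) worms fed OP50 bacteria. In 16 lists a factor was set against histone H3 of the same strain: 7 of these lists were from worms that carried the tag alone or with glp-1(e2141), and 9 were from worms that also carried set-26(tm2467) or hcf-1(pk924). Worms for H3 lists were fed L4440 bacteria, which carry an empty vector, or glp-1 RNAi bacteria, except for HCF-1 in glp-1(e2141), which was on OP50. The glp-1(e2141) and glp-1 RNAi worms lack a germline, and the wild type and L4440 worms have one. All samples were whole animals, so that a profile mixes tissues, and fewer cells of a type cannot be told apart from less binding per cell.

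A gene was called bound in a list when a peak touched the window around its annotated start, which reached 2000 bp upstream and 500 bp downstream. The level of a bound gene was the fold enrichment, a ratio of factor to control reads at the summit, of the peak with the highest -log10 q over that window. A single list stands for each condition, so no difference between lists has a replicate error and none was tested. The libraries held 27600021 to 71527062 factor tags and 27129087 to 85576392 control tags, and the lists held 1267 to 13422 peaks.

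The promoters of 7 members are shown because they include members with low (pas-6) and high (rpn-3) SET-26 levels, and 6 of them hold a word of the SKN-1 consensus. Each run reads 5′ to 3′ on the strand of the gene up to the base before its annotated start (WBcel235, sequence from RefSeq). Capitals mark a SKN-1 word. pbs-6 is at chrIII:8244093-8244342 on the minus strand, pas-6 at chrV:5584344-5584593 on the minus strand and rpt-2 at chrV:6017670-6017919 on the minus strand. rpt-6 is at chrIII:12370206-12370455 on the plus strand, rpn-2 at chrIII:6198934-6199183 on the plus strand, rpn-12 at chrII:11652874-11653123 on the plus strand and rpn-3 at chrIII:8447103-8447352 on the plus strand.
pbs-6: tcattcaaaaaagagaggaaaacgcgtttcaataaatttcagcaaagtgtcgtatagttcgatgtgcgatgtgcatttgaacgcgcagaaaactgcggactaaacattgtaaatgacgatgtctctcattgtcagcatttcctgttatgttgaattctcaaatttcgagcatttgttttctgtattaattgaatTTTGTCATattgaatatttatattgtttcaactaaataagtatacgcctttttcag
pas-6: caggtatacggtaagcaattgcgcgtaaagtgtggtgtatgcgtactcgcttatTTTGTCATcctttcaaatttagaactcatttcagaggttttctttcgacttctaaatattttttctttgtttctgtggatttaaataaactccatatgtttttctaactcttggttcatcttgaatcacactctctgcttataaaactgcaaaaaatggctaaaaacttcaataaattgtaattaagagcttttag
rpt-2: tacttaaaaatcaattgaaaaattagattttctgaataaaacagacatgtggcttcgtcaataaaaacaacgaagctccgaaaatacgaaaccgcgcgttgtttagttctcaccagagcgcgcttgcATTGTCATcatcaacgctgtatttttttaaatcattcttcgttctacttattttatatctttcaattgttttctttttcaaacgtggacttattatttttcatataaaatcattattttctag
rpt-6: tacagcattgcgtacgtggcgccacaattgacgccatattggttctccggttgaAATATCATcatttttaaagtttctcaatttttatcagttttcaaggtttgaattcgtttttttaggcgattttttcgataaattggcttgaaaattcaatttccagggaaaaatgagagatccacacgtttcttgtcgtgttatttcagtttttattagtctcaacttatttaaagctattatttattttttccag
rpn-2: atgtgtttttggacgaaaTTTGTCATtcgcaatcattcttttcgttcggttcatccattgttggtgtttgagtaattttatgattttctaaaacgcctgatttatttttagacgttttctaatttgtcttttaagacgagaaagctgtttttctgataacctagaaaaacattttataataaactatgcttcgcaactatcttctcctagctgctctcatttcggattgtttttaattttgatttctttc
rpn-12: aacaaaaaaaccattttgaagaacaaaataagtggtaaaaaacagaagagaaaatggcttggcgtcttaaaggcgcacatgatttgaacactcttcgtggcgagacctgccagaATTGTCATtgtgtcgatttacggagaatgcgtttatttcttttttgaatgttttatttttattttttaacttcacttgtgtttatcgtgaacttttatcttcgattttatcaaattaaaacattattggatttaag
rpn-3: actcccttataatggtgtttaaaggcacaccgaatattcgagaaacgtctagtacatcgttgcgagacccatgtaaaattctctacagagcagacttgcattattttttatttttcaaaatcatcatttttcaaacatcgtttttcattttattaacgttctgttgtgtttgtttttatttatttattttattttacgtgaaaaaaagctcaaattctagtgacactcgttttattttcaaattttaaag

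None of the 7 stretches overlaps an annotated protein-coding gene. The SKN-1 consensus was searched as the 8 words AATGTCAT, ATTGTCAT, TATGTCAT, TTTGTCAT, AATATCAT, ATTATCAT, TATATCAT and TTTATCAT on both strands, from 250 bases before to 50 bases after the gene start. A word was present at 11 of the 33 members (33.3%) and at 3295 of 19973 promoters of the same length (16.5%). The 11 were pas-2, pas-6, pbs-1 and pbs-6 of the core particle and rpt-2, rpt-6, rpn-2, rpn-5, rpn-8, rpn-11 and rpn-12 of the regulatory particle. The word began 56 bases before the start of pbs-6, 136 before rpn-12, 123 before rpt-2 and 196 before both pas-6 and rpt-6. The heat shock element, searched as GAA, TTC and GAA with any 2 bases between neighbouring blocks, on either strand was found at 2 members, pas-1 and rpn-3 (6.06%, against 1.97% of all promoters). TTTCAG, the usual acceptor for spliced leader RNA, was found on the gene strand at 17 members (51.5%, against 39.6%). The bases AG stood directly before the annotated start of 24 members (72.7%), against 27.6% of all genes, as a splice acceptor ends. A match is a description of letters and does not show that a factor binds there.

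SET-26 had the highest median folds of the factors at proteasome genes, as it had over all bound genes. Folds of different factors are not on a common scale, because tags, antibodies or control libraries differed. In wild type over antibody background SET-26 was bound at all 33 members (14 core, 19 regulatory), where 36.7% of all genes were bound. In glp-1(e2141) it was bound at 32 (14 core, 18 regulatory), against 38.7% of all genes. Over H3 it was bound at 33 members on L4440 (34.6% of all genes) and at 33 with glp-1 RNAi (38.7% of all genes). The median fold at bound members was 13.9 in wild type, 8.73 in glp-1(e2141), 11.2 on L4440 and 14.9 with glp-1 RNAi, and the medians over all bound genes were 4.93, 4.099, 4.17 and 5.27 in the same order. Ranked by -log10 q among all bound genes of a list, 18, 17, 20 and 21 members stood above the 80th percentile. Core and regulatory medians were 15.0 and 12.5 in wild type, 8.73 and 9.34 in glp-1(e2141), 13.9 and 11.1 on L4440 and 16.4 and 14.1 with glp-1 RNAi, with ranges that overlapped throughout.

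HCF-1 was bound at nearly the same genes at lower folds. It was bound at 32 members in wild type (31.3% of all genes) and at 31 in glp-1(e2141) (37.2% of all genes) over antibody background. Over H3 it was bound at 32 on L4440 (29.6%), at 32 with glp-1 RNAi (38.2%) and at 31 in glp-1(e2141) (43.8%). All 14 core genes were bound in each of these 5 lists. Median folds at bound members were 4.87, 4.80, 4.87, 6.62 and 5.61 in the order given, beside 2.83, 2.92, 3.15, 3.28 and 3.12 over all bound genes. The HCF-1 library of glp-1(e2141) was used in both of its lists, so those lists are not independent.

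HDA-1 was bound at most members, at ranks near the middle of all bound genes. It was bound at 25 members in wild type (12 core, 13 regulatory, against 29.9% of all genes) and at 31 in glp-1(e2141) (14 core, 17 regulatory, against 40.5%) over antibody background. Over H3 it was bound at 27 on L4440 (13 core, 14 regulatory, against 29.7%) and at 31 with glp-1 RNAi (14 core, 17 regulatory, against 40.1%). The median fold at bound members was 2.22, 2.56, 2.04 and 2.68 in these lists, and 2.35, 2.70, 2.13 and 2.60 over all bound genes. The median percentile of bound members by -log10 q was 44.3 in wild type and 43.3 in glp-1(e2141), against 84.2 and 83.2 for SET-26 and 84.2 and 78.9 for HCF-1. All 3 factors were bound at 25 members in wild type (75.8%, against 19.0% of all genes) and at 31 in glp-1(e2141) (93.9%, against 28.5%).

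**Figure D1:**
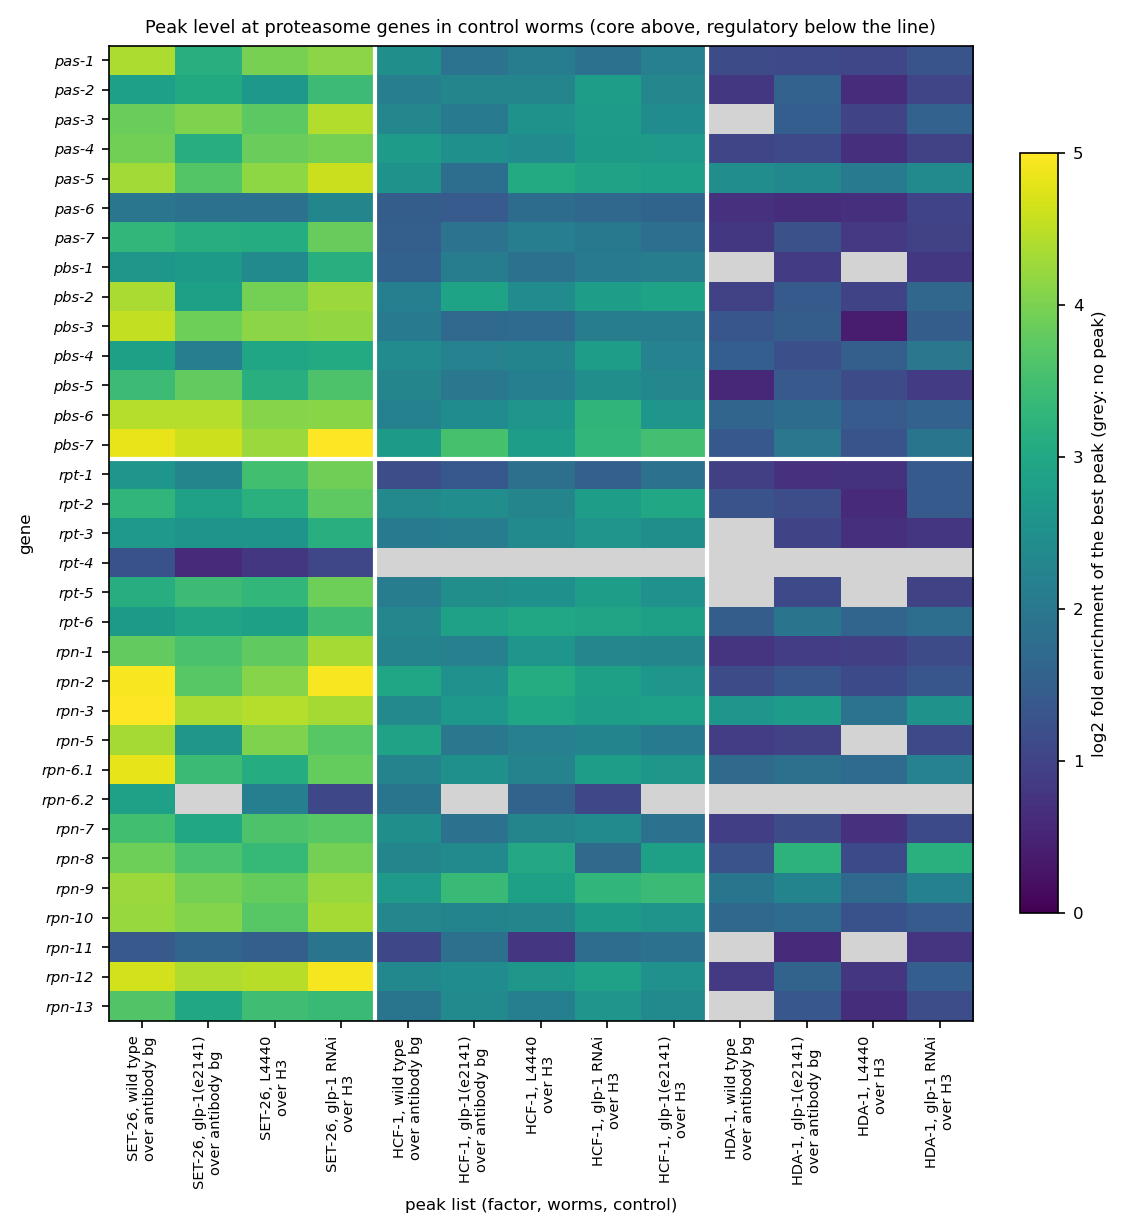
Fold enrichment, on a log2 colour scale, of the best peak at each of the 33 proteasome genes (rows) in the 13 lists from worms with functional set-26 and hcf-1 (columns, by factor), with grey where there was no peak. SET-26 columns are the brightest, with medians of 8.73 to 14.9, HDA-1 columns are the darkest, with medians of 2.04 to 2.68, and rpt-4 and rpn-6.2 hold most of the grey cells.

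**Figure D2:**
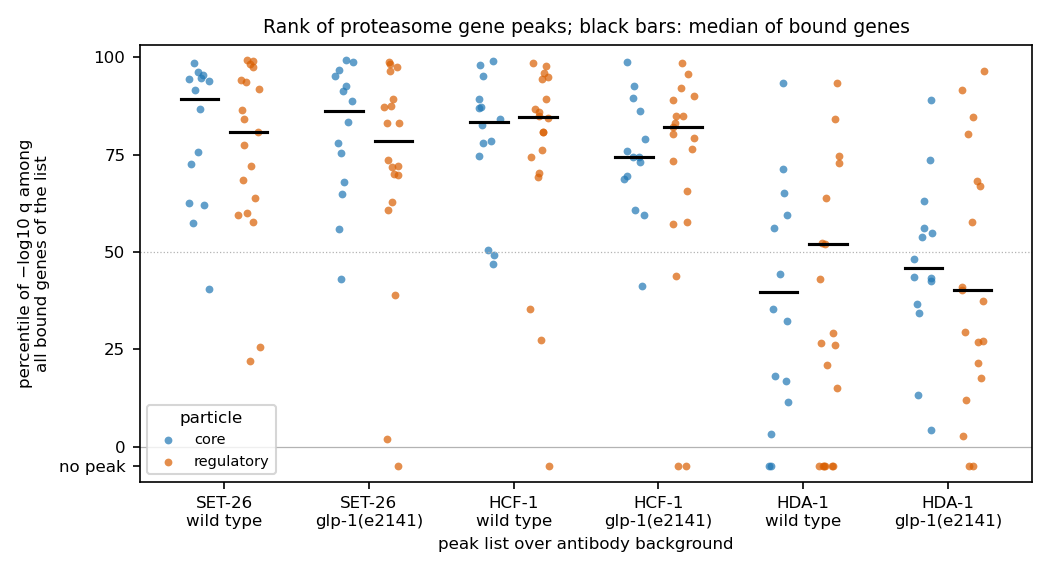
Percentile of each member's -log10 q among all bound genes of the same list, for the 6 lists over antibody background, with core genes in blue, regulatory genes in orange, black bars at the medians of bound genes and unbound genes below 0. SET-26 and HCF-1 members gather in the upper part, while HDA-1 members spread over the whole range with medians of 44.3 and 43.3 over both particles.

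Members often shared an upstream region with a gene of the opposite strand. The start of such a gene lay within 2000 bp upstream of 24 of the 33 members (72.7%, 9 core and 15 regulatory), against 27.8% of all protein-coding genes. In 8 members (24.2%, against 20.6% of all genes) a gene of the same strand ended within 500 bp upstream, a spacing seen in operons. The best SET-26 peak of 31 members in wild type and of 28 in glp-1(e2141) also overlapped the window of another protein-coding gene, so most of these peaks cannot be given to the proteasome gene alone. The share over all bound genes was not counted, so the sharing of peaks cannot be called particular to these genes. SET-26 peaks at members were long, with a median of 4579 bp in wild type and 1618 bp in glp-1(e2141), against 1204.5 and 756 bp for all bound genes. HCF-1 peaks had medians of 1179.5 and 800 bp and HDA-1 peaks of 404 and 452 bp.

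The summits of the 3 factors were within 200 bp of each other at most members, at shares from slightly below to above those of all genes. Among members that both SET-26 and HCF-1 bound, the best summits were within 200 bp of each other at 25 of 32 in wild type and at 28 of 31 in glp-1(e2141), with median gaps of 39.5 and 19 bp. For SET-26 and HDA-1 the counts were 18 of 25 and 26 of 31, and for HCF-1 and HDA-1 20 of 25 and 27 of 31. Over all genes bound by both, the share within 200 bp was 69.9% and 84.3% for SET-26 and HCF-1, against 78.1% and 90.3% of members, and 75.3% and 84.2% for SET-26 and HDA-1, against 72% and 83.9% of members. For HCF-1 and HDA-1 it was 78.6% and 86.0%, against 80% and 87.1% of members. Across members bound by both, Spearman's rho between the SET-26 and HCF-1 folds was 0.618 in wild type (32 genes) and 0.372 in glp-1(e2141) (31 genes), against 0.643 and 0.746 over all genes bound by both. Between SET-26 and HDA-1 it was 0.439 (25 genes) and 0.707 (31 genes), against 0.114 and 0.210 over all genes bound by both. The SET-26 and HDA-1 lists share their HA antibody background in glp-1(e2141) and the second HA sample in wild type. These values describe genes, which share libraries and chromatin and are not replicates.

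**Figure D3:**
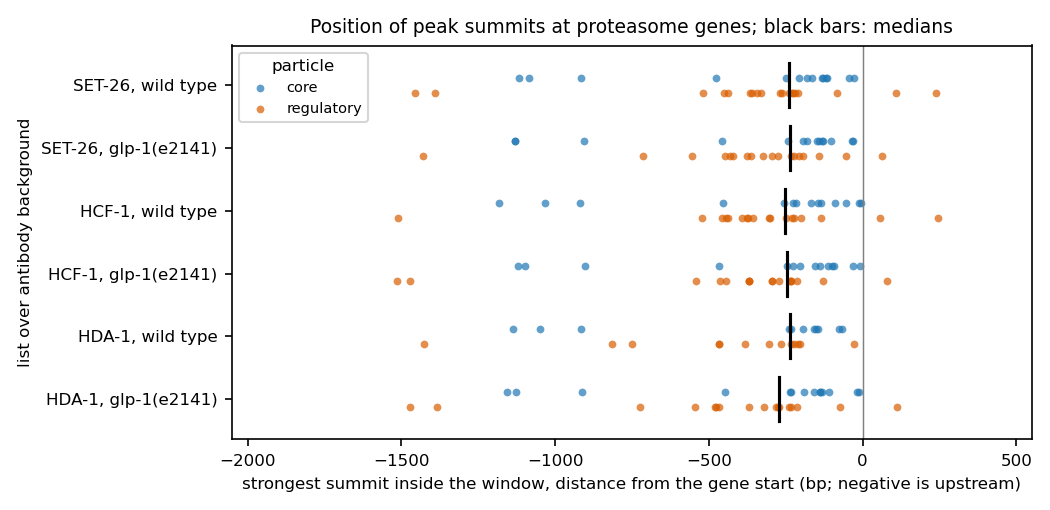
Distance in bp from the gene start of the strongest summit inside the window, for each bound member in the 6 lists over antibody background, with core genes in blue, regulatory genes in orange and black bars at the medians. Between 18 and 27 members a list have the summit from 500 bp upstream to 250 bp downstream, and the distant summits of pas-1, pas-5, pbs-5 and rpn-10 recur for all 3 factors.

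Summits over 500 bp upstream recurred in every antibody background list that bound the gene at pas-1, pas-5, pbs-5, rpt-3 and rpn-10. At pas-1, an alpha ring gene whose start is 107 bp from the end of rpoa-12, the SET-26, HCF-1 and HDA-1 summits in glp-1(e2141) were 906, 903 and 912 bp upstream, between genes. At pbs-5, the chymotrypsin-like catalytic subunit, they were 1129, 1119 and 1155 bp upstream, and the SET-26 summit fell in an intron of K05C4.2, whose end is 111 bp from the start of pbs-5. At rpn-10, a ubiquitin receptor that starts 119 bp from the end of mrpl-9, they were 1429, 1513 and 1384 bp upstream. pas-1, pbs-5 and rpn-10 thus had their summits beyond a close same-strand neighbour or inside it. pas-5 did not, with summits 1131, 1099 and 1126 bp upstream in the same lists and its nearest same-strand neighbour, ubc-25, ending 1447 bp away. rpt-3 had its summits 520 to 553 bp upstream in the 5 such lists that bound it.

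A level taken from the whole peak can come from a neighbouring summit when the peak is long. The best SET-26 summit lay outside the window at 8 of 33 bound members in wild type, 3 of 32 in glp-1(e2141), 7 of 33 on L4440 and 6 of 33 with glp-1 RNAi. Over all bound genes the shares were similar, at 24.3%, 12.9%, 19.6% and 19.0% in the same order. With only summits inside the window, an alternative chosen after the data were seen, the median SET-26 fold at members was 9.92, 8.11, 9.02 and 12.9 in these lists, against 4.11, 3.73, 3.51 and 4.42 over all genes with such a summit. Among the 13 lists from worms with functional set-26 and hcf-1, the largest differences between both levels were at rpn-6.1, pbs-2 and rpn-8.

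Alpha ring genes ranged from strong to weak. pas-5, at chrI:10566350-10567300, had the highest rank of the class (the median, over the 6 antibody background lists of the 3 factors, of the percentile by -log10 q), with a SET-26 fold of 19.7 in wild type, 12.6 in glp-1(e2141), 17.7 on L4440 and 24.4 with glp-1 RNAi. These values came from a summit 1219 to 1241 bp downstream of the start, and the in-window folds were 14.9, 7.01, 15.2 and 9.35, with summits 1086 to 1164 bp upstream. Its HDA-1 folds of 5.45, 5.02, 4.25 and 5.28 were the highest of the core particle in each list. pas-6, at chrV:5583161-5584343, had the lowest such rank, with SET-26 folds of 3.87, 3.67, 3.64 and 4.93 in the same order and HDA-1 folds of 1.65, 1.58, 1.59 and 2.02. All 4 SET-26 values of pas-6 were below those of pas-5. By SET-26 fold alone pas-1 was above pas-5 in wild type (20.7) and pas-3 in glp-1(e2141) (16.4). pas-3 had no HDA-1 peak in wild type and HDA-1 folds of 2.81, 2.04 and 2.97 in the other 3 lists.

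Beta ring genes included the strongest core member. pbs-7, a structural beta subunit at chrI:8695205-8696301, had SET-26 folds of 28.5 in wild type, 24.6 in glp-1(e2141), 18.9 on L4440 and 32.3 with glp-1 RNAi, and HCF-1 folds of 6.63, 11.7, 6.99 and 9.90. Its SET-26 summits were 45 and 31 bp upstream over antibody background, in peaks of 10483 and 7129 bp that also covered the windows of mrps-15, hbs-1 and asg-1. HCF-1 summits were 6 and 7 bp and HDA-1 summits 67 and 11 bp upstream in the same conditions. pbs-6, also a structural subunit, had SET-26 folds of 21.8, 21.8, 17.0 and 17.2, with a summit 133 and 141 bp upstream in the stretch printed above.

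The catalytic beta subunits were not the strongest of the ring. pbs-1, the caspase-like subunit at chrIV:1708814-1709745, had SET-26 folds of 6.23, 6.61, 5.17 and 8.79 and the lowest median rank of the class, although pbs-4 had lower SET-26 folds in glp-1(e2141) (4.43) and with glp-1 RNAi (8.31). It had no HDA-1 peak in wild type or on L4440, and HDA-1 folds of 1.84 in glp-1(e2141) and 1.75 with glp-1 RNAi. pbs-5 had SET-26 folds of 10.7, 13.9, 8.77 and 12.2, above the median of the members in glp-1(e2141) and below it in the other 3 lists. pbs-2, the trypsin-like subunit, had SET-26 folds of 20.6, 7.16, 15.5 and 19.0, but with summits inside the window only they were 6.07, 7.16, 5.60 and 8.67. Its HDA-1 peaks in wild type and on L4440 had their only summits 2063 and 2084 bp upstream, beyond the window.

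Among the ATPase genes, rpt-2 had the highest median rank, with SET-26 folds of 9.79 in wild type, 7.23 in glp-1(e2141), 9.02 on L4440 and 13.51 with glp-1 RNAi. rpt-5 followed with 8.70, 10.7, 9.97 and 14.9, and had no HDA-1 peak in wild type or on L4440, the lists with a germline. rpt-3 had 6.53, 6.02, 6.03 and 8.94 and no HDA-1 peak in wild type. rpt-6 had lower SET-26 folds (6.61, 7.54, 7.13 and 11.03) than rpt-5 in all 4 lists, but higher HCF-1 folds in wild type (4.95 against 4.29) and in glp-1(e2141) (7.29 against 5.57).

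rpt-4 stood apart from the other ATPases at the start given for its gene model. That start, at position 46216 of chromosome II on the minus strand, lies inside rpoa-49 of the opposite strand. There HCF-1 and HDA-1 had no peak in any of their lists, and SET-26 had folds of 2.41, 1.52, 1.75 and 2.099. A second annotated transcript of rpt-4 starts 2554 bp downstream, at position 43662. Around that start SET-26 had folds of 13.9 in wild type, 11.9 in glp-1(e2141), 14.5 on L4440 and 20.5 with glp-1 RNAi, with summits 113 to 251 bp upstream. HCF-1 had 6.31, 9.33, 5.70 and 8.68 there and HDA-1 had 2.53, 2.20, 2.04 and 3.30. With any annotated transcript start allowed, HCF-1 was bound at 33 of 33 members in all 5 of its lists from worms with functional set-26. In set-26(tm2467) HCF-1 had folds of 2.81 on L4440 and 1.80 in glp-1(e2141) at the second start of rpt-4, and no peak with glp-1 RNAi.

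The non-ATPase genes held the widest spread. rpn-3, a lid subunit at chrIII:8447353-8449346, had the highest median rank of the class over the 3 factors, with SET-26 folds of 33.2 in wild type, 20.7 in glp-1(e2141), 21.7 on L4440 and 20.1 with glp-1 RNAi, and HDA-1 folds of 6.18, 6.79, 3.73 and 5.82. rpn-12, another lid subunit, had SET-26 folds of 25.4, 21.1, 21.98 and 30.5 and HDA-1 folds of 1.80, 3.01, 1.72 and 2.80. By SET-26 fold alone rpn-12 was above rpn-3 in 3 of the 4 lists. rpn-12 was thus high for SET-26 and ordinary for HDA-1, while rpn-3 was high for both. The peak of rpn-12, with its summit 230 and 231 bp upstream, also covered the window of rad-23 on the opposite strand, which encodes a shuttle that brings ubiquitinated proteins to the proteasome and starts 395 bp away. rpn-9, a lid subunit, had SET-26 folds of 19.0, 15.6, 14.1 and 18.7 and an HCF-1 fold of 10.5 in glp-1(e2141).

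The ubiquitin receptors and the deubiquitinase differed in level. rpn-10, at chrI:10730712-10732424, had SET-26 folds of 18.7, 16.7, 13.1 and 20.1. rpn-13, the other receptor, had 12.5, 7.91, 11.1 and 10.4 and no HDA-1 peak in wild type. rpn-11, the subunit that removes ubiquitin chains, at chrII:4043055-4044546, had 2.63, 3.10, 2.84 and 3.85. The summits of rpn-11 were 63 to 110 bp downstream of its start in the SET-26 lists over antibody background, in its own 5′ UTR. rpn-11 had no HDA-1 peak in wild type or on L4440, and HDA-1 folds of 1.52 in glp-1(e2141) and 1.68 with glp-1 RNAi.

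The paralogs rpn-6.1 and rpn-6.2 were bound in different ways. rpn-6.1 encodes a lid subunit that has been linked to stress resistance and lifespan in worms. At rpn-6.1, at chrIII:6959110-6962001, SET-26 had folds of 28.3 in wild type, 10.7 in glp-1(e2141), 8.55 on L4440 and 14.1 with glp-1 RNAi. The wild-type value came from a summit 10023 bp upstream in a peak of 24906 bp that reached eef-1A.1, and the in-window folds were 7.95, 5.83, 6.17 and 8.29. In the other 3 lists the strongest SET-26 summit was 755 to 760 bp downstream, in an intron of rpn-6.1. HDA-1 had folds of 3.32, 3.57, 3.36 and 4.64, with summits 245 to 304 bp upstream.

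rpn-6.2, at chrIII:8999817-9001999, had its highest levels in worms with a germline. SET-26 had a fold of 7.32 in wild type (4.01 inside the window), no peak in glp-1(e2141), 4.48 on L4440 and 2.11 with glp-1 RNAi. HCF-1 had 3.87 in wild type, no peak in either glp-1(e2141) list, 3.03 on L4440 and 2.101 with glp-1 RNAi. The in-window summits of both factors were 238 to 483 bp downstream of the start, in an intron of rpn-6.2 itself. HDA-1 had no peak there in any list. At the gene start, all values with a germline were above all values without one, for both factors. Around a second annotated transcript start, 1118 bp downstream, HCF-1 had folds of 3.06 and 3.07 in the glp-1(e2141) lists, with no summit inside that window, and HDA-1 had a fold of 1.51 with glp-1 RNAi. HCF-1 also had 3.43 there with glp-1 RNAi (2.101 inside that window), beside 3.87 in wild type and 3.03 on L4440. With levels from the whole peak, the order by germline thus did not hold for HCF-1 around that start. rpn-6.2 was the only member bound by SET-26 or HCF-1 in wild type and not in glp-1(e2141). Over all genes 727 were so for SET-26, beside 6605 bound in both lists, and 937 for HCF-1, beside 5320.

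Folds with and without a germline were compared over members bound in both lists. The ratio of the wild-type to the glp-1(e2141) fold had a median of 1.23 for SET-26 at 32 members (1.05 over all genes bound in both), 0.938 for HCF-1 at 31 members (0.833) and 0.909 for HDA-1 at 25 members (0.776). The ratio of the L4440 to the glp-1 RNAi fold had medians of 0.726 for SET-26 (0.673 over all genes), 0.860 for HCF-1 (0.805) and 0.756 for HDA-1 (0.716). SET-26 was therefore higher with a germline in one pair of lists and lower in the other, and no direction is drawn from it. HDA-1 was bound in the list without a germline and not in the list with one at pas-3, pbs-1, rpt-3, rpt-5, rpn-11 and rpn-13 over antibody background, and at pbs-1, rpt-5, rpn-5 and rpn-11 over H3, with no member in the reverse state in either pair. Over all genes, 2324 were bound by HDA-1 only without a germline and 208 only with one over antibody background, and 2291 and 205 over H3.

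rpn-8 had the lowest ratio of HDA-1 folds with to without a germline, 0.255 and 0.241, with the values without a germline from summits outside the window. At this lid gene, at chrI:4175319-4177271, HDA-1 had folds of 2.41 in wild type and 2.19 on L4440, and of 9.45 in glp-1(e2141) and 9.08 with glp-1 RNAi. The high values came from summits 2920 and 2916 bp upstream, beyond the window, in peaks that also covered the windows of egg-5 and mrps-6. Inside the window the folds without a germline were 4.39 and 2.91, with the summits in the 3′ UTR of mrps-6. On L4440 and glp-1 RNAi several other members then differed more than rpn-8, among them pbs-3 (1.32 and 2.78) and rpt-2 (1.51 and 2.68). The strongest SET-26 summit of rpn-8 was outside the window as well, 3372 to 3402 bp downstream in all 4 lists.

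The next comparisons asked whether each factor's binding at proteasome genes was present without another factor. HCF-1 levels were lower in set-26(tm2467) at every member bound in both lists of a pair, and at nearly all genes so bound. With glp-1 RNAi, HCF-1 was bound at 11 members in the mutant (5 core, 6 regulatory), where 6.16% of all genes were bound. In glp-1(e2141) it was bound at 19 (10 core, 9 regulatory, against 20.6%), and on L4440 at 31 (14 core, 17 regulatory, against 20.3%). Of members bound in the control list, 11 of 32 were also bound in the mutant with glp-1 RNAi (15.4% of all control-bound genes), 19 of 31 in glp-1(e2141) (42.3%) and 31 of 32 on L4440 (68.3%). The ratio of the mutant to the control fold was below 1 at each member bound in both (98.6%, 97.8% and 98.9% of all genes bound in both). Its medians at members were 0.230, 0.297 and 0.564, against 0.298, 0.381 and 0.615 over all genes bound in both. The median mutant folds of these members were 1.73, 1.67 and 2.79, against 1.80, 1.64 and 2.33 over all genes bound in both. Control medians were 6.62, 5.61 and 4.87 at bound members, against 3.28, 3.12 and 3.15 over all bound genes. The mutant factor libraries were deeper than the controls by 1.28, 1.23 and 1.19 times.

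Members with a mutant HCF-1 peak were mostly in the upper quintiles of control levels. With glp-1 RNAi all 11 members with a peak were among the 19 in the top quintile of control-bound genes by -log10 q, where 51.9% of all genes had one. None of the 13 members in the lower quintiles had a peak, and there the shares of all genes were 0.328% to 17.3%. In glp-1(e2141) 11 of 14 members in the top quintile had a peak (81.5% of all genes there), 6 of 12 in the next (53.6%) and 2 of 5 in the middle quintile (36.9%). On L4440 all 31 members in the upper 3 quintiles had one, as did 97.7%, 97.4% and 86.8% of all genes there, from the top quintile down.

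The 11 members with HCF-1 peaks in set-26(tm2467) on glp-1 RNAi were pas-2, pas-4, pas-5, pbs-6, pbs-7, rpt-2, rpt-5, rpt-6, rpn-3, rpn-9 and rpn-12. Their control folds were 6.61 to 9.90 and their mutant folds 1.501 to 2.21. The highest mutant folds were 2.21 at rpn-3 (from 6.90), 2.08 at pas-5 (from 7.38) and 2.05 at pbs-6 (from 9.64). pbs-7, the highest in the control with 9.90, had 1.60 in the mutant. At a -log10 q of 5 or more the count was 7 of 32 (12.8% of all control-bound genes), and at a fold of 3 or more it was 0 of 30 (1.32%). On L4440 mutant folds were higher, at 5.48 for rpn-2 (from 8.56), 4.26 for pbs-7 (from 6.99) and 4.07 for pas-5 (from 8.37), and only rpn-11 had no peak (control 1.73). With glp-1 RNAi the lowest control fold among the 11, 6.61 at pas-4, was above their highest mutant fold.

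**Figure D4:**
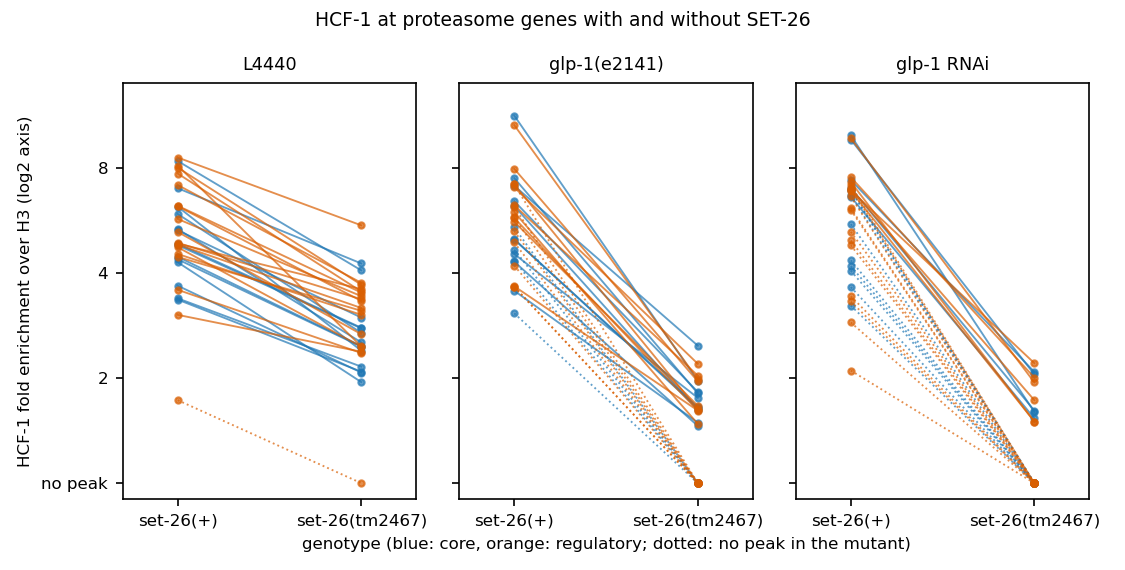
HCF-1 fold over H3 (log2 axis) at each member bound in the control list, in worms with functional set-26 and in set-26(tm2467), for L4440, glp-1(e2141) and glp-1 RNAi, with core genes in blue, regulatory genes in orange and dotted lines to genes with no mutant peak. Every line goes down, with 31 of 32 peaks present in the mutant on L4440, 19 of 31 in glp-1(e2141) and 11 of 32 with glp-1 RNAi.

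SET-26 was still bound at proteasome genes in hcf-1(pk924). It was bound at 33 members on L4440 (35.3% of all genes) and at 32 with glp-1 RNAi (35.7% of all genes). All 33 control-bound members were bound in the mutant on L4440 (94.1% of all control-bound genes) and 32 of 33 with glp-1 RNAi (87.7%), the exception being rpn-6.2, whose control fold was 2.11. The fold was lower in the mutant at 29 of 33 members on L4440, with a median ratio of 0.800, against 0.942 over all genes. With glp-1 RNAi the fold was lower at 32 of 32 (93.6% of all genes bound in both), with a median ratio of 0.524, against 0.610. Core and regulatory medians of this ratio were 0.764 and 0.834 on L4440 and 0.513 and 0.539 with glp-1 RNAi. With glp-1 RNAi the mutant factor library was 1.55 times as deep as the control, and on L4440 it was 0.894 times as deep. At pbs-7 the SET-26 fold was 18.9 in the control and 15.3 in the mutant on L4440, and 32.3 and 13.9 with glp-1 RNAi. At rpn-12 it was 21.98 and 17.4 on L4440, and 30.5 and 17.2 with glp-1 RNAi. At rpt-1 the folds of 11.2 and 2.90 on L4440 gave the lowest ratio, 0.258, but the control value came from a summit 2265 bp downstream, and the in-window values were 5.36 and 2.90. With summits inside the window only, the median ratio over members was 0.790 on L4440 (0.955 over all genes) and 0.567 with glp-1 RNAi (0.629).

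HDA-1 was bound at fewer members in set-26(tm2467) than in the control lists. HDA-1 was bound at 9 members on L4440 (3 core, 6 regulatory, against 13.5% of all genes) and at 19 with glp-1 RNAi (9 core, 10 regulatory, against 30.1%). Of members bound in the control list, 9 of 27 were bound in the mutant on L4440 (44.1% of all control-bound genes) and 19 of 31 with glp-1 RNAi (71.9%). With glp-1 RNAi all 10 members in the upper 2 quintiles of control -log10 q had a mutant peak, as did 95.8% and 98.8% of all genes there. In the middle quintile 4 of 8 had one (81.6% of all genes) and in the quintile below 4 of 10 (55.5%). In the lowest quintile it was 1 of 3 (27.5%). The ratio of mutant to control fold was below 1 at all 19 (91.2% of all genes bound in both). Its median was 0.685, against 0.722 over all genes. On L4440 the ratio was below 1 at all 9 (96.3%), with a median of 0.593, against 0.634. On L4440, 4 of 4 members in the top quintile had a mutant peak (96.0% of all genes) and 3 of 4 in the next (74.0%). In the middle quintile 2 of 7 had one (31.5%), and in the lower 2 it was 0 of 4 (13.6%) and 0 of 8 (4.91%).

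With glp-1 RNAi the 12 members with no HDA-1 peak in set-26(tm2467) were pas-1, pas-2, pas-3, pas-7, pbs-5, rpt-2, rpt-3, rpt-5, rpn-1, rpn-7, rpn-11 and rpn-12. Their control folds were 1.68 at rpn-11 to 2.97 at pas-3, with a median of 2.11, against a median of 2.98 at the 19 members with a mutant peak. The ranges overlapped. pas-3 (2.97) and rpn-12 (2.80) had no mutant peak although they were above the median of all bound members (2.68), while pbs-1 (1.75), pas-4 (1.98), pas-6 (2.02) and rpn-5 (2.16) had one from lower control folds. rpn-8 had 9.08 in the control, from the summit beyond the window, and 1.85 in the mutant. pas-5 had 5.28 in the control and 3.79 in the mutant, rpn-3 had 5.82 and 3.77, and rpn-9 had 4.57 and 2.87. The 9 members with a peak on L4440 were pas-5, pbs-6, pbs-7, rpt-6, rpn-3, rpn-6.1, rpn-8, rpn-9 and rpn-10, and they had a peak with glp-1 RNAi as well. The H3 library of the mutant with glp-1 RNAi was the deepest control, and the part of depth in these counts was not tested.

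HDA-1 in hcf-1(pk924) was bound at 18 members on L4440 (7 core, 11 regulatory, against 26.9% of all genes) and at 26 with glp-1 RNAi (12 core, 14 regulatory, against 33.7%). Of control-bound members, 18 of 27 were bound in the mutant on L4440 (83.2% of all control-bound genes) and 26 of 31 with glp-1 RNAi (79.2%). By quintile of control -log10 q, all members in the upper 2 had a mutant peak in both pairs. In the middle and lower quintiles on L4440 it was 4 of 7, 3 of 4 and 3 of 8 (92.9%, 75.9% and 49.1% of all genes). With glp-1 RNAi it was 7 of 8, 9 of 10 and 0 of 3 (90.1%, 69.5% and 40.1%). The 5 without a mutant peak with glp-1 RNAi were pas-3, pbs-1, rpt-3, rpt-5 and rpn-11, with control folds of 1.68 to 2.97. The median ratio of folds was 0.876 on L4440 (0.910 over all genes) and 0.762 with glp-1 RNAi (0.819). The ratio was above 1 with glp-1 RNAi at pas-4, with folds of 1.98 in the control and 2.42 in the mutant, and at rpn-10, with 2.72 and 3.15. With glp-1 RNAi the ratio was below 1 at 24 of the 26 (81.4% of all genes bound in both). On L4440 it was below 1 at 12 of the 18 (70.6%). There it was above 1 at pas-4, pas-5, rpt-2, rpn-8, rpn-10 and rpn-12, with the highest value, 1.094, at rpn-8. The set-26(tm2467) and hcf-1(pk924) comparisons share their HDA-1 control lists.

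**Figure D5:**
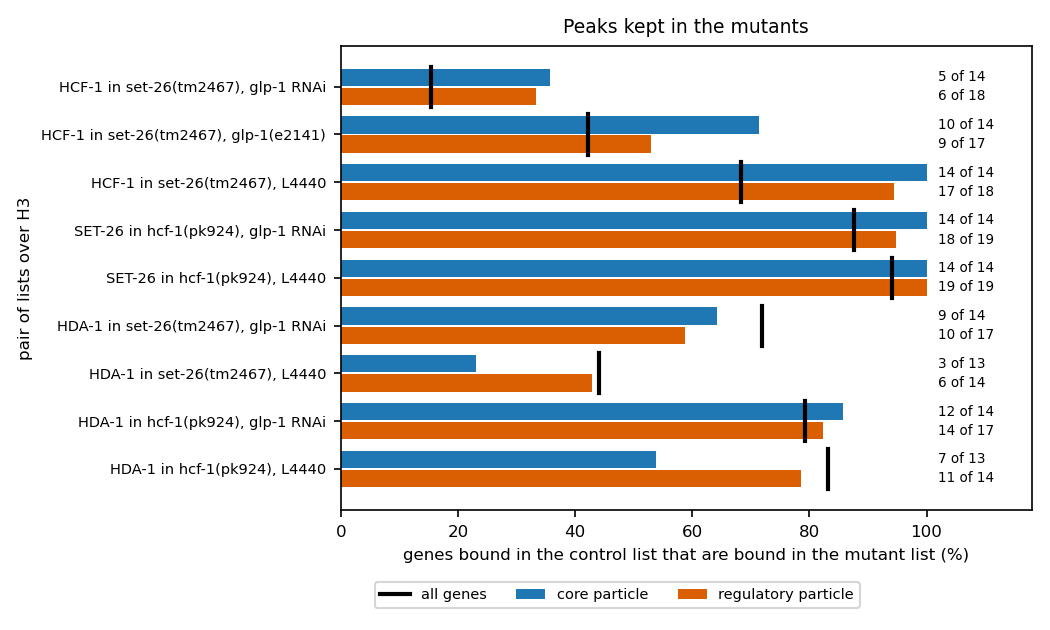
Share, in percent, of genes bound in the control list that were also bound in the mutant list, for core genes (blue), regulatory genes (orange) and all genes (black line), with the counts at the right, in the 9 pairs of lists over H3. HCF-1 and SET-26 bars reach past the line for all genes, while HDA-1 bars in set-26(tm2467) end before it, at 3 of 13 and 6 of 14 genes on L4440.

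Core and regulatory particle genes had no order that held over the 9 pairs. Without a fold threshold the widest gap in share was for HDA-1 in hcf-1(pk924) on L4440, with 7 of 13 core and 11 of 14 regulatory genes, and it was in the opposite direction with glp-1 RNAi, with 12 of 14 and 14 of 17. The split depended on the threshold. At a fold of 3 or more, HCF-1 in set-26(tm2467) on L4440 was present at 2 of 14 core and 12 of 17 regulatory genes (29.0% of all control-bound genes), a wider gap, where without that threshold it was 14 of 14 and 17 of 18. HCF-1 in set-26(tm2467) in glp-1(e2141) had 10 of 14 core and 9 of 17 regulatory genes, and with glp-1 RNAi 5 of 14 and 6 of 18. With 14 and 19 genes and a single list for each condition, these counts were not tested.

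Genes that act with the proteasome outside the complex were counted from a list of 24, all of which the annotation held. SET-26 was bound at 23 of the 24 in wild type and in glp-1(e2141), with median folds of 10.6 and 6.75. HCF-1 was bound at 21 and 20 (3.98 and 4.49) and HDA-1 at 16 and 17 (2.46 and 3.03). Over all genes the shares bound were 36.7% and 38.7% for SET-26, 31.3% and 37.2% for HCF-1 and 29.9% and 40.5% for HDA-1. psme-3, the gene of a proteasome activator that does not contain ATPases, had no peak of any factor in the 6 lists over antibody background. png-1, whose enzyme edits SKN-1 so that it can activate proteasome genes, had SET-26 folds of 1.49 in wild type and 2.07 in glp-1(e2141) and no HCF-1 or HDA-1 peak. skn-1 itself had folds of 2.07 and 1.61 for SET-26 and 3.16 and 3.19 for HDA-1, the reverse of the order seen at most subunit genes. ubh-4, a deubiquitinase gene, had folds of 17.2 and 11.4 for SET-26 and 9.27 and 10.2 for HCF-1. let-70, a ubiquitin-conjugating enzyme gene, had HDA-1 folds of 10.7 and 6.83, above every subunit gene in wild type. In set-26(tm2467) with glp-1 RNAi HCF-1 was bound at 6 of the 21 bound in the control, against 15.4% of all control-bound genes. The 6 were ubh-4, rad-23, let-70, npl-4.2, ufd-2 and chn-1.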

How the data were processed

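CUT&RUN of SET-26, HCF-1 or HDA-1, with antibody background and H3, was done in 83 samples. According to the methods and to the submitters' processing notes, reads were trimmed with Trim Galore 0.6.5 and aligned to WBcel235 (ce11) with Bowtie2 2.4.3. By the same sources, samples within a group were merged with SAMtools and passed to MACS2 2.1.4 at a q of 0.01. Duplicates were kept and the larger library was scaled to the smaller. deepTools 3.3 was named for the tracks, which were not used here. Because peaks were called on merged samples, the values carry no replicate error. The deposited peak tables give the pileup at the summit (a signal), the fold enrichment over the control (a ratio) and the -log10 q, per the file headers. The narrowPeak copies of the same lists were not used.

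Peaks were joined to gene starts of Ensembl release 115 (WBcel235) with Python 3.11.15 and NumPy 2.4.6, by an overlap of 1 bp or more, and figures were drawn with Matplotlib 3.10.9. SciPy 1.17.1 gave rank correlations. Chromosome lengths of the RefSeq WBcel235 genome, which gave the promoter sequences, were checked to hold all annotated genes. The overlap step was tested on simulated data. A gene kept its binding in a mutant when a mutant peak overlapped its window. Each gene took the peak with the highest -log10 q, and peaks with several summits were counted as 1. Values in full were given to the highest and lowest ranked gene of each name class, genes unbound in any antibody background list, genes with an HCF-1 peak in set-26(tm2467) on glp-1 RNAi, genes without an HDA-1 or SET-26 peak in a mutant on glp-1 RNAi, the rpn-6 paralogs, the ubiquitin receptors, the deubiquitinase and the catalytic subunits. Genes named beside these were chosen after their values were seen. The members and lists were chosen with earlier results of these data known. The SET-26 and HDA-1 lists over antibody background share their HA background samples in glp-1(e2141) and, per the labels, the second HA sample in wild type.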

Additional observations from a re-analysis of the deposited data

How the results depend on the processing

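The lists were called on merged samples, so leaving out a replicate was not possible. No paired analysis was possible because the lists were called on merged replicates. Requiring a fold of 3 or more left 6 members bound by HDA-1 in wild type, 10 in glp-1(e2141), 5 on L4440 and 9 with glp-1 RNAi. Over all 19985 genes it left 1426 bound by HDA-1 on L4440 and 3139 with glp-1 RNAi. In set-26(tm2467) it left HCF-1 bound at 0 members in glp-1(e2141), 14 on L4440 and 0 with glp-1 RNAi, with 0, 14 and 0 of them also bound in the control, and HDA-1 at 0 on L4440 and 3 with glp-1 RNAi, with 0 and 3 also bound in the control. In hcf-1(pk924) this threshold left HDA-1 bound at 1 on L4440 and 6 with glp-1 RNAi. Of control-bound members 1 of 5 and 5 of 9 were kept, against 67.0% and 59.6% of all control-bound genes. A -log10 q of 5 or more left HCF-1 in set-26(tm2467) with glp-1 RNAi bound at 7 members, all 7 bound in the control (12.8% of all control-bound genes were kept). A window of 500 bp upstream to 250 bp downstream left HDA-1 in set-26(tm2467) on L4440 bound at 5, all 5 bound in the control (38.4% of all control-bound genes were kept). Asking mutant peaks to cover at least 50% of the control peak left HCF-1 in set-26(tm2467) at 0 with glp-1 RNAi and 3 in glp-1(e2141). The share of all genes under this setting is not given here. The other counts stayed within 1.5 times of the reported ones under these settings. All counts did so under a summit inside the window, the nearest start on the strand, any annotated transcript start and, for mutant pairs, overlap with the control peak itself. Taking levels from summits inside the window, chosen after the data were seen, or from the summit with the highest fold left the median fold in all 22 lists within the middle 50% of the members' values. Low-fold HDA-1 calls and HCF-1 calls in set-26(tm2467) therefore depend on the threshold.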
